A study of Mus musculus with 36 samples.

Results

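Liver signals of 10 genes of insulin signalling and of the insulin-like growth factor (IGF) binding proteins were followed in mouse models of neural tube defects and their wild type controls. The members were Insr, Irs1, Irs2, Igfbp1, Igfbp2, Igfbp4, Grb14, Foxo1, Trib3 and Enho, out of 18193 gene symbols on the array, and every probe set with one of these symbols was taken. These came to 25 probe sets, of which 22 passed the filter on low signals, and each of the 10 genes had at least 1 that passed. The members are a named list; no threshold on their values was applied.

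Liver RNA of 36 female mice aged 6 to 8 weeks and fasted for 4 to 5 hours was measured on Affymetrix arrays, with 1 array per mouse and 4 mice in each of 9 groups. The mutant groups were heterozygotes of the strains Pax3Sp2H (Pax3), Lrp6Cd (Cd), Apobtm1Unc (Apob) and Vangl2Lp (Lp), and mice of a random-bred closed colony that are all considered ct/ct homozygotes (ct). Wild type mice of the Lrp6Cd and Vangl2Lp strains were the controls of the Cd and Lp heterozygotes, CBA/CaJ (CBA) wild type mice those of ct, and C57BL/6J (B6) wild type mice those of both the Pax3 and the Apob heterozygotes, so that the last 2 comparisons share their 4 control arrays. The labels call the Pax3 and Cd lines responsive to dietary folic acid and the Apob, ct and Lp lines resistant to it. The ct and CBA mice are different stocks, so strain and mutation cannot be told apart there, and the labels do not say whether the Pax3 and Apob heterozygotes were littermates of the B6 mice.

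Insulin binds a receptor tyrosine kinase on the hepatocyte, which phosphorylates the adaptor proteins IRS1 and IRS2 and through them activates phosphoinositide 3-kinase and Akt. Akt keeps the transcription factor FOXO1 out of the nucleus, and in fasting, when insulin is low, FOXO1 enters it and raises genes of glucose production together with Irs2 and Igfbp1. The liver is also the main source of circulating IGF-1 and of several of the binding proteins that carry IGFs and limit their access to receptors.

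Signals are given in the arrays' linear units in the order of replicates 1 to 4. Differences are on the scale of log2 of the signal plus 23.1, as mutant minus control ± standard error, with p-values of a limma model over all 36 arrays adjusted by Benjamini-Hochberg over 13188 genes. A gene was called at an adjusted p below 0.05. The hepatocyte transcript Alb read mean signals from 40496 to 67614 in the 9 groups, and 7 of 7 measured hepatocyte markers passed the filter. In bulk tissue, fewer cells of a type and less RNA per cell cannot be told apart. The 3' to 5' ratio of GAPDH, a measure of RNA integrity, was 0.729 to 0.956 on 34 arrays, 52.5 on CBA replicate 4 and 1.72 on ct replicate 3. These 2 arrays stood apart, so results that rest on them, directly or through the shared estimate of the spread, are also given without both. The insulin gene Ins2 itself did not pass the filter, with group means of 17.4 to 132.7, and Ins1 had no probe set with its symbol.

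Promoter sequences in the RefSeq table of GRCm38.p6 were found for 8 of the 10 members, as 9 windows that reach from 250 bases before the transcript start to 50 after it. Those of Igfbp1, Igfbp2 and Irs2 are shown because Igfbp2 varied with each of the other 2 among mice of a group on 34 arrays, as described further on. Capitals mark exact matches, on either strand, to the insulin response motif CAAAACA or to the E-box CACGTG. The windows are, in this order, chr11:7197537-7197836 on the plus strand, chr1:72824230-72824529 on the plus strand and chr8:11008880-11009179 on the minus strand, each written 5′ to 3′ along its gene.

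Igfbp1: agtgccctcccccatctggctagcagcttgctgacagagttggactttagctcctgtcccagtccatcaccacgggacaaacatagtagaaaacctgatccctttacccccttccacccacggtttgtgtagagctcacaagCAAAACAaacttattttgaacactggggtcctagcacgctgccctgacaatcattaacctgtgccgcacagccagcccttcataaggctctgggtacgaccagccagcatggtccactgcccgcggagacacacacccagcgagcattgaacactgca

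Igfbp2: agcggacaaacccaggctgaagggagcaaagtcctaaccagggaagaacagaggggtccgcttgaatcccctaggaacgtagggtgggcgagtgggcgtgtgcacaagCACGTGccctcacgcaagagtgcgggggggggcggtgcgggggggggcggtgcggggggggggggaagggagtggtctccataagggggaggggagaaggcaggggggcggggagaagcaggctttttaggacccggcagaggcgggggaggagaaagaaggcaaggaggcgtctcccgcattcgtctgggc

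Irs2: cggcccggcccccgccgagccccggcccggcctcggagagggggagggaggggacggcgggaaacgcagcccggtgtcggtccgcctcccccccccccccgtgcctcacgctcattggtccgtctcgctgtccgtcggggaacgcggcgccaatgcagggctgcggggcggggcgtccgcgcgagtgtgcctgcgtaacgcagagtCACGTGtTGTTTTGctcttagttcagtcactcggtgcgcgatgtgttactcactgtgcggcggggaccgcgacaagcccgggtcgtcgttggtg

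The Igfbp1 window held 1 match to the insulin response motif, which begins 108 bases before the transcript start. The Irs2 window held an E-box at -44 and an insulin response motif at -37 on the opposite strand, with 1 base between them. A match to the E-box lay at -142 in the Igfbp2 window, which held no such motif, and a second Igfbp2 window held neither motif. In the Irs1 window, which is not printed, an E-box at -115 and an insulin response motif at -111 shared bases, and another insulin response motif lay at -32. No window of Igfbp4, Grb14, Foxo1 or Trib3 held either, and the FoxO sequence GTAAACA was in none of the 9. Of 32851 promoter windows of this length in the table, 6.28% held CAAAACA, 7.15% the E-box, 0.408% both and 3.65% GTAAACA. A match describes the letters only.

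Across the 10 genes, Enho rose and Grb14 fell in ct mice, and no member was called in the other 4 mutant lines. Those 2 called members compare with 6.65% of all genes called in ct. The background of called genes was 0% in Pax3, 0% in Cd, 0.538% in Apob and 0.0303% in Lp, so the counts of 0 members are near the background. At an unadjusted limma p below 0.05 the members numbered 2 in Pax3, 1 in Cd, 2 in Apob, 3 in ct and 2 in Lp. Of all 13188 genes, 702, 275, 1435, 3180 and 933 were below that level, in the same order. Without the 2 arrays that stood apart, 1 member was called in ct, Enho, where 1.79% of all genes were called.

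The 4 mutant signals lay wholly above or below the 4 control signals for Igfbp4 and Enho in Pax3, Igfbp4 and Foxo1 in Apob, Grb14 and Enho in ct, and Irs2 and Enho in Lp, and for no member in Cd. Of all genes, 5.38% did so in Pax3, 9.39% in Apob, 6.92% in ct, 5.72% in Lp and 3.07% in Cd. The median difference over the 10 members was 0.00 in Pax3, 0.06 in Cd, -0.28 in Apob, 0.11 in ct and -0.39 in Lp, beside 0.01, 0.00, 0.02, 0.01 and -0.03 over all genes.

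**Figure D1:**
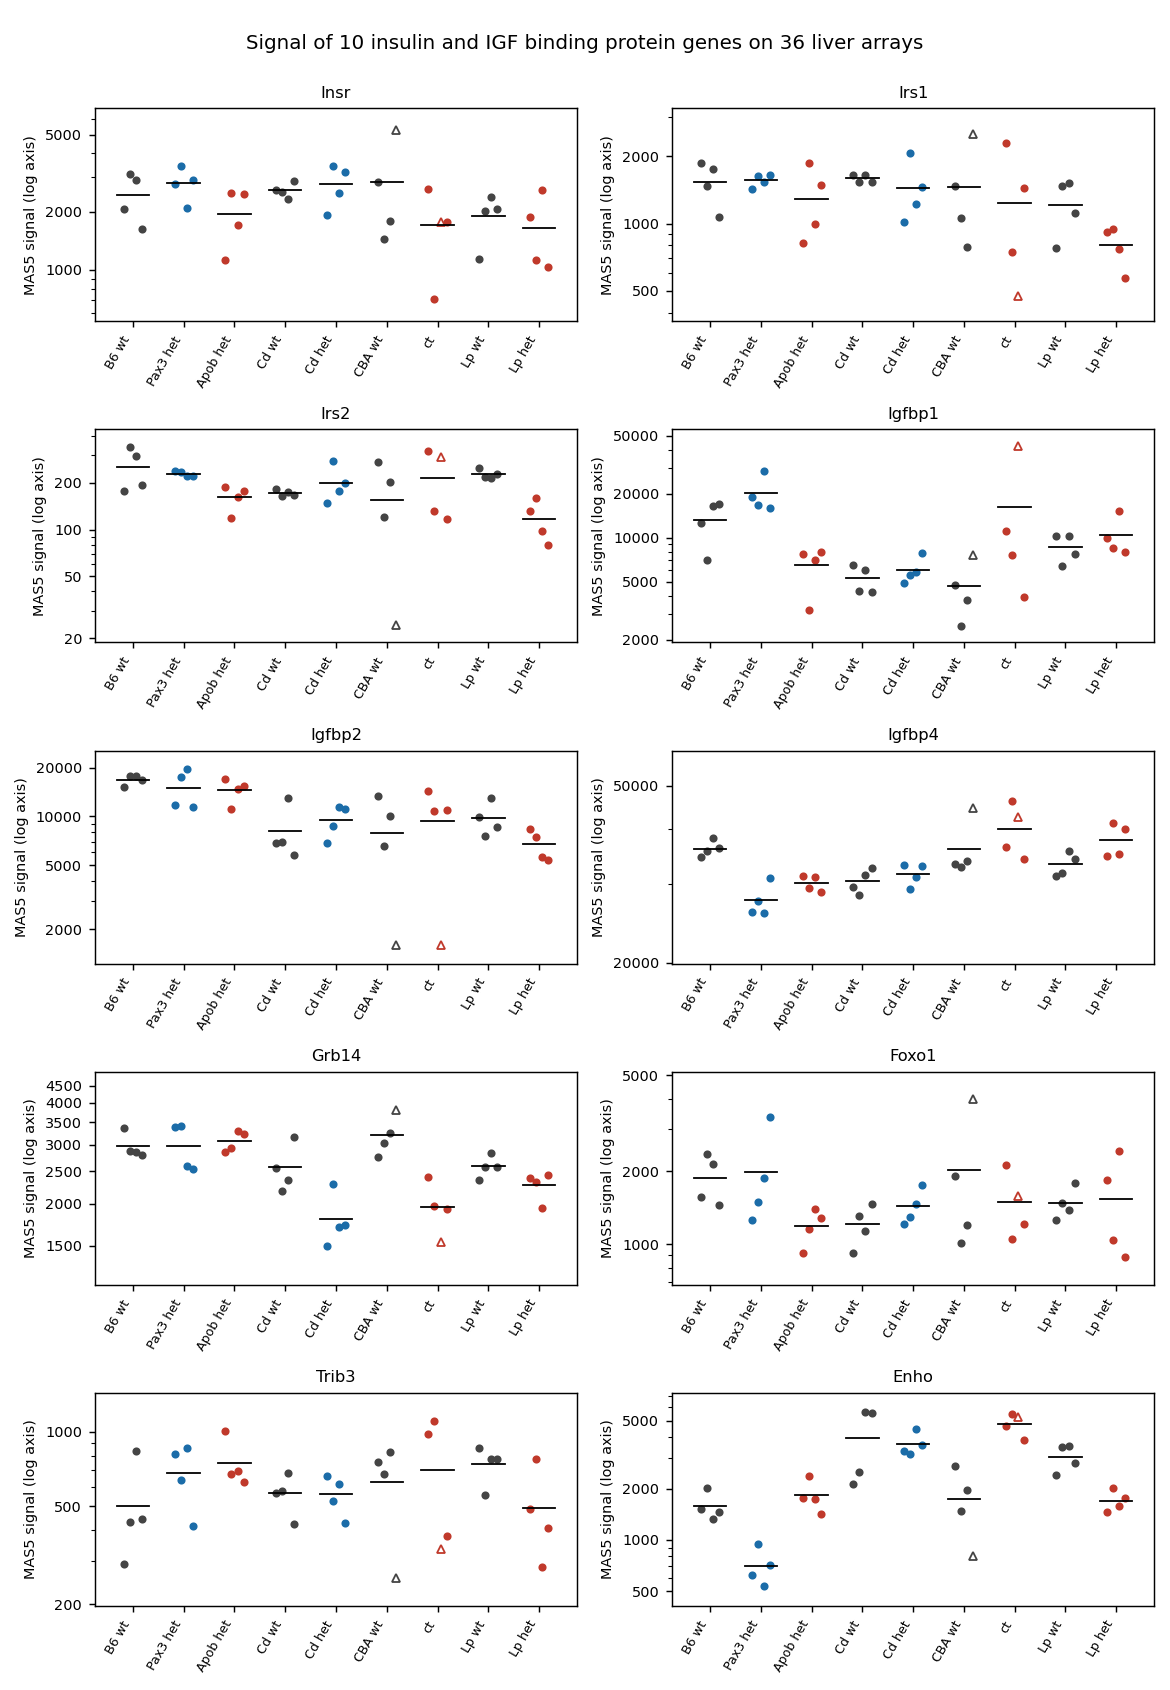
MAS5 signal of the 10 genes on each of the 36 arrays (1 point per array, log axis), with the group mean as a bar, controls in grey, lines labelled responsive in blue and resistant in red, and CBA replicate 4 and ct replicate 3 as open triangles. Each gene is shown by its brightest probe set. Enho was lowest in the Pax3 heterozygotes (534 to 941) and highest on average in ct mice (3866 to 5450.1). The Igfbp4 probe set shown stayed within 25884 to 46117 on all arrays, while the dimmest of that gene ran from 15.2 to 4424.

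The insulin receptor gene Insr was called in no comparison. In ct mice its signals were 2622, 705, 1778 and 1758, and in CBA mice 2851, 1441, 1779 and 5252. The groups overlapped, and the highest of the 8 values was that of CBA replicate 4. The log2 difference was -0.67 ± 0.35 (95% interval -1.39 to 0.05, limma adjusted p = 0.238), and -0.38 ± 0.37 without the 2 arrays. In the other lines it ran from -0.34 in Apob to 0.22 in Pax3. The 2 dim Insr probe sets, with median signals of 113.5 and 75.0, gave -0.61 and -0.79 in Pax3, the opposite sign to the bright one, and none of the 3 was called. Within groups Insr varied widely: its within-group SD of 0.54 (log2) was larger than that of 83.2% of all genes.

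Irs1, the receptor substrate that carries much of the growth and metabolic signal, was lower on average in Lp heterozygotes. They read 913, 946, 767 and 569, and Lp wild type mice 776, 1465, 1514 and 1110.3. The highest heterozygote exceeded the lowest wild type mouse, so the groups overlapped. The difference of -0.57 ± 0.34 (adjusted p = 0.753) did not pass the test, nor did those of the other lines, from -0.34 in ct to 0.05 in Pax3. Without the 2 arrays, Irs1 in ct gave 0.33 ± 0.32, a change of sign with no call on either side. Irs1 lies 16 protein-coding genes from Pax3 on chromosome 1, and its Pax3 and B6 signals overlapped (1427, 1629, 1536 and 1641 against 1871, 1469.5, 1752 and 1067).

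Irs2, the substrate gene that rises in the fasted liver, separated the 2 Lp groups. It was read from 1 probe set with a median signal of 185.5, whose target within the gene is not known here. The heterozygotes read 132, 160.2, 98.5 and 79.1 and the wild type mice 249, 217, 214 and 228. Every heterozygote lay below every wild type mouse, and the wild type values were close together. The difference was -0.87 ± 0.34 (limma adjusted p = 0.59, 95% interval -1.56 to -0.17), lower in 4 of 4 mice and not called. Without the 2 arrays the same difference had an adjusted p of 0.145. In ct the value of 0.59 ± 0.34 turned to -0.12 ± 0.28 without them. CBA replicate 4 read 24.4 and the other CBA mice 271, 121 and 202. The Apob difference was -0.54, with overlapping groups.

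Grb14 encodes an adaptor that binds the active insulin receptor and inhibits its kinase. In ct mice it read 2404, 1973, 1542 and 1932 and in CBA mice 2761, 3038, 3247 and 3810.5. All ct values lay below all CBA values, with a gap between 2404 and 2761. It fell by 0.71 ± 0.15 on the log2 scale (limma adjusted p = 0.00469). Without either one of the 2 doubtful arrays it was still called (adjusted p = 0.0335 without ct replicate 3 and 0.0159 without CBA replicate 4), and without both it was not (-0.52 ± 0.15, adjusted p = 0.0778). A fit to the 8 arrays of the comparison alone gave an adjusted p of 0.509.

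Grb14 was also lower on average in Cd heterozygotes, at 1496, 2299.8, 1705 and 1733 against 2563, 2185, 2362 and 3167 in Cd wild type mice. One heterozygote exceeded the lowest wild type mouse. The difference of -0.51 ± 0.15 had the smallest p of the members in this line (0.00249 unadjusted, limma adjusted p = 1) and was not called. In Pax3, Apob and Lp the values were -0.01, 0.05 and -0.19. Its spread within groups was small, with an SD of 0.19 (log2), above that of 3.67% of genes. A second, dim probe set did not pass the filter and gave 0.12 in ct.

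Trib3 encodes a pseudokinase that binds Akt and is induced through ATF4 under stress. Its differences were 0.63 ± 0.35 in Apob, 0.47 ± 0.35 in Pax3, -0.64 ± 0.35 in Lp, -0.01 in Cd and 0.08 in ct. The ct value was 0.36 without ct replicate 3 and -0.29 without CBA replicate 4. A second Trib3 probe set gave 0.31 ± 0.28 in Apob, 0.47 in Pax3, -0.53 in Lp, -0.33 in Cd and -0.39 in ct, and neither was called in any of the 5 lines. On the first of these, Apob heterozygotes read 1005, 675, 693 and 627, and B6 mice 292, 431, 838 and 445. B6 replicate 3 lay among the heterozygotes, and adjusted p was 0.533. Of 15 tested ATF4 and stress targets other than Trib3, 0 were called in each of the 5 lines.

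Foxo1, the transcription factor that Akt holds inactive, was lower in every Apob heterozygote than in every B6 mouse. The signals were 923, 1155, 1393 and 1281 in heterozygotes and 1564, 2364, 2150 and 1449.8 in B6 mice, so the groups were separated narrowly. The difference was -0.64 ± 0.32 (limma adjusted p = 0.478), and the 2 other Foxo1 probe sets past the filter gave -0.57 and -0.14. Another, dim probe set gave 0.88. The 3' to 5' ratio of the pyruvate carboxylase control was 2.99 to 5.21 on the Apob arrays and 5.99 to 26.6 on the B6 arrays; its part in the Apob differences was not tested. The other lines gave -0.27 in ct to 0.25 in Cd, and ct changed to 0.07 ± 0.32 without the 2 arrays.

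Igfbp1 encodes the binding protein that insulin represses most directly in the liver and that rises on fasting. Pax3 heterozygotes read 19042, 16738, 28714 and 16043 and Apob heterozygotes 7743, 3177, 7067 and 7951, beside 12647, 7048, 16466 and 17099 in the B6 mice that serve both as control. The Pax3 values overlapped the upper part of B6, and of the Apob values 3 lay between the 2 lowest B6 values and 1 below all B6 values. The difference was 0.64 ± 0.43 in Pax3 (adjusted p = 0.999) and -1.04 ± 0.43 in Apob (limma adjusted p = 0.326), and neither was called. Without the 2 doubtful arrays the adjusted p in Apob was 0.0603.

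In ct mice Igfbp1 read 11077, 7651, 42394 and 3959, and in CBA mice 4740.3, 2496, 3756 and 7653. The groups overlapped, and ct replicate 3 was the highest of all 36 arrays. The difference of 1.34 ± 0.43 lay just outside the threshold (limma adjusted p = 0.0504), and became 0.97 ± 0.35 (adjusted p = 0.177) without the 2 arrays and 0.69 ± 0.35 (adjusted p = 0.277) without ct replicate 3 alone. It was called without CBA replicate 4 (adjusted p = 0.0388) or without ct replicate 4 (0.00735). Among ct mice the summed signal of the 8 Kupffer cell markers reached 76874 and that of the blood cell markers 52283. The part of these cells in the Igfbp1 signal was not tested. Cd and Lp heterozygotes gave 0.20 ± 0.43 and 0.24 ± 0.43.

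A test of whether the mutant minus control difference of a gene differs among the 5 lines, a moderated F test, called 2 of 10 members, Igfbp1 and Enho, beside 2.46% of all genes. For Igfbp1 the adjusted p was 0.0464, and 33 of 48 alternative fits did not pass, while the fit without the 2 doubtful arrays did (0.00436). In that fit Igfbp4 passed the F test too (adjusted p = 0.0325, beside 0.147 with all arrays). The share of all genes passing there is not given here. The contrast of the mean effect of the 2 responsive lines minus that of the 3 resistant lines gave 0 called members of 10. In this limma contrast 0.144% of all genes were called. At an unadjusted limma p below 0.05 there was 1 member, and the share of all genes at that level is not given here.

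The 4 wild type groups differed in Igfbp1. Means were 13315 ± 4618 in B6, 8663 ± 1900.2 in Lp, 5276 ± 1164 in Cd and 4661 ± 2196 in CBA wild type mice (SD, n = 4). Igfbp1 was lower in CBA than in B6 (-1.55 ± 0.43 on the log2 scale, limma adjusted p = 0.021; -1.82 ± 0.33 and 0.000353 without the 2 arrays), a pair in which 7.73% of genes were called. That call was lost without B6 replicate 3 or 4 or CBA replicate 2 (adjusted p = 0.0731, 0.0677 and 0.0679) and in the fit to the 8 arrays alone (0.0771). The CBA and B6 signals overlapped, with 7653 on CBA replicate 4 and 7048 on B6 replicate 2. Cd wild type mice lay wholly below B6 (-1.28 ± 0.43, limma adjusted p = 0.0931, and 0.00693 without the 2 arrays). Neighbours in the order of the 4 groups did not differ by a called amount in the fit to all arrays. The F test over the 4 groups gave an adjusted p of 0.0404 for Igfbp1, and 13 of 29 alternative fits did not pass.

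Igfbp2, another IGF binding protein made by the liver, was highest in B6 mice. Wild type B6 mice read 15256, 17787, 17771 and 16849, Cd 6836, 6947, 12978 and 5758, CBA 13461, 6554, 10118 and 1606 and Lp 9889.5, 7545, 13095 and 8644. No mouse of the other 3 wild type groups reached the lowest B6 value. The differences from B6 were -1.45 ± 0.47 for CBA (limma adjusted p = 0.0514), -1.13 ± 0.47 for Cd (0.216) and -0.81 ± 0.47 for Lp (0.486), none called. Without CBA replicate 4 and ct replicate 3, which read 1606 and 1599.8 and with which the within-group SD of Igfbp2 was 0.73 in place of 0.35 (log2), the values were -0.81 ± 0.25, -1.13 ± 0.23 and -0.81 ± 0.23, all called (adjusted p = 0.0497, 0.00162 and 0.0347). The F test over the wild type groups likewise gave 0.127 with and 0.0049 without these arrays.

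In these pairs 12.7% (CBA), 17.3% (Cd) and 12.1% (Lp) of all genes had groups that did not overlap with B6. Mutant against control, Igfbp2 differed by -0.54 in Lp to 0.27 in Cd and was not called. Its ct value of 0.23 ± 0.47 was 0.94 without ct replicate 3 and -0.42 without CBA replicate 4, and 0.30 ± 0.27 without both. Pax3 and Apob heterozygotes had Igfbp2 signals of 11421 to 19688 and 11132 to 17047, overlapping their B6 controls. Igfbp2 lies 59 protein-coding genes from Pax3 on the same chromosome.

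Igfbp4, a binding protein that in most settings restrains IGF action, is read here from its brightest probe set, with signals of 25884 to 46117. The within-group SD of that probe set was 0.13 (log2), below that of all but 0.136% of genes. The standard error of a difference was 0.12 on it, 0.13 on the next brightest and 0.30 to 0.65 on the other 4. Pax3 heterozygotes read 25969, 27529, 25884 and 30998 and B6 mice 34604, 35553, 38044 and 36144. The groups were separated, lower in 4 of 4 heterozygotes. The difference was -0.39 ± 0.12 (limma adjusted p = 0.702), and it was called in 1 of 20 alternative fits, with array weights (0.0408). With quantile normalization it was -0.11 ± 0.09. All 6 Igfbp4 probe sets gave negative Pax3 values, from -0.45 to -0.28. The summed signal of the 7 hepatocyte markers was 211834 to 269576 on the Pax3 arrays and 291345 to 321859 on the B6 arrays, also without overlap; its part in the Igfbp4 difference was not tested.

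Apob heterozygotes read 31384, 29480.1, 31159 and 28797 for Igfbp4, all below B6. That difference of -0.26 ± 0.12 (adjusted p = 0.403) was not called. A second bright probe set lay wholly below B6 as well (-0.21 ± 0.13), while the other 4 gave 0.02 to 0.80. Of those, the dimmest lay wholly above B6, at 3418 to 4424 against 1864 to 2525. So did the next dimmest, at 9708 to 11476 against 7346 to 8402. The probe sets disagreed in ct too. The one that stood for the gene gave 0.15 and the others 0.11 to 1.23, and on CBA replicate 4 the signals of 3 of these others were as low as 15.2, 372.9 and 2361.

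Enho, which encodes adropin, a peptide secreted by liver and brain and tied to energy balance, varied most of the 10 between groups. Its group means spanned 2.75 on the log2 scale, with ct highest, then Cd heterozygotes, Cd wild type, Lp wild type, Apob heterozygotes, Lp heterozygotes, CBA wild type, B6 wild type and Pax3 heterozygotes. In that order the step from B6 wild type to Pax3 heterozygotes was 1.16 and that from Lp wild type to Apob heterozygotes 0.75, while the 6 other steps (0.01 to 0.39) were smaller than the within-group SD of 0.41. The test of whether the 5 mutant effects differ gave an adjusted p of 5.63e-05, and it passed in all 48 alternative fits (1.31e-05 to 0.00025).

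In ct mice Enho read 4649, 5450.1, 5231 and 3866, and in CBA mice 2707, 1478, 1962 and 809. Every ct mouse exceeded every CBA mouse, and the ct value nearest to CBA was 3866. Enho rose by 1.57 ± 0.28 (limma adjusted p = 0.000515), and by 1.20 ± 0.28 (adjusted p = 0.015) without CBA replicate 4, which had the lowest CBA value, and ct replicate 3. A fit to the 8 arrays alone gave an adjusted p of 0.166.

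Pax3 heterozygotes read 625, 941, 534 and 714 for Enho, beside 1527, 2015, 1325 and 1461 in B6 mice. All 4 heterozygotes were below all 4 controls, and they were the lowest group of the 9. The difference was -1.16 ± 0.28 (95% interval -1.72 to -0.59, limma adjusted p = 0.589), in a line where no gene was called and 702 had an unadjusted p below 0.05. Without the 2 arrays the adjusted p was 0.0783. The lower hepatocyte marker sum of the Pax3 arrays applies here too, and its part was not tested.

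Lp heterozygotes read 1456, 2003, 1573 and 1768 and Lp wild type mice 2414, 3503, 3544 and 2841. These groups did not overlap either, and the difference of -0.84 ± 0.28 (limma adjusted p = 0.444) was not called. Cd heterozygotes (3323, 3199.8, 4476 and 3622) lay within the range of Cd wild type mice (2132, 2497, 5607 and 5565), which split into 2 low and 2 high values. There the difference was 0.01 ± 0.28, and in Apob it was 0.20 ± 0.28. The responsive minus resistant contrast was -0.88 ± 0.23 (adjusted p = 0.116), and was called in 1 refit, without CBA replicate 1 (adjusted p = 0.0474).

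A second bright Enho probe set followed the first. It gave -1.17 in Pax3, 0.08 in Cd, 0.21 in Apob, 2.29 in ct (limma adjusted p = 0.0014 over all probe sets) and -1.08 in Lp. Its Pax3 signals were 138, 441, 200.4 and 379, and its B6 signals 861, 673, 462 and 549.5. The heterozygotes were again wholly below. In ct it read 2278, 2708, 2825 and 1769.7 against 1067, 590.2, 778 and 82.8 in CBA, where replicate 4 was far below the rest. The other 2 Enho probe sets were dim, with group means of 62.5 to 141.3 and 31.7 to 95.95, and gave -0.51 and 1.15 in ct.

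**Figure D2:**
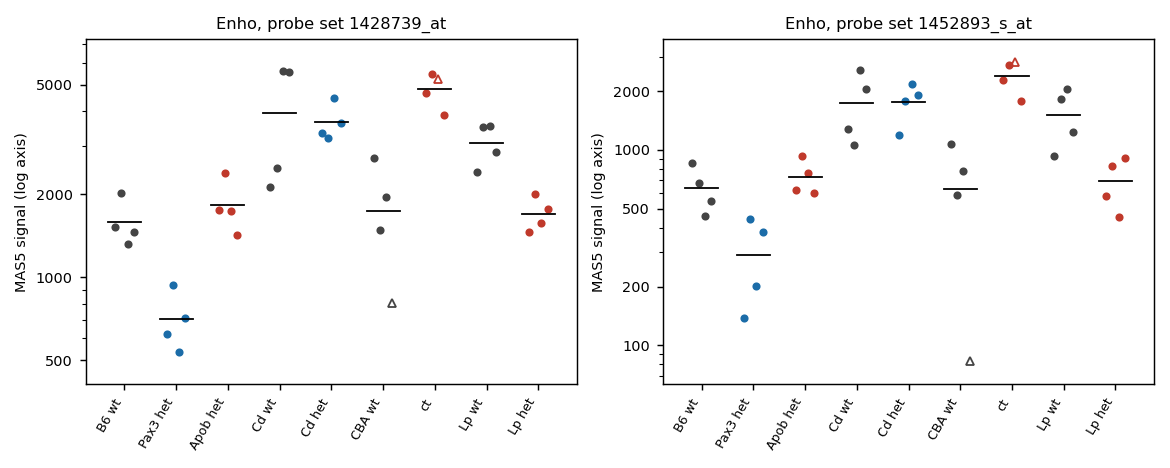
Signals of the 2 bright Enho probe sets on the 36 arrays (log axis, bars at group means, open triangles for CBA replicate 4 and ct replicate 3). On both, the Pax3 heterozygotes lie below B6 mice (-1.16 and -1.17 on the log2 scale) and the ct mice above CBA mice (1.57 and 2.29).

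Among wild type mice, Enho was higher in Cd than in B6 by 1.19 ± 0.28 (limma adjusted p = 0.0082, 3.89% of genes called) and lower in CBA than in Cd (-1.16 ± 0.28, adjusted p = 0.00946, 5.07% called). Of the pairs without B6, groups did not overlap for Igfbp4 in CBA and Cd (12% of all genes), for Irs1 and Irs2 in Lp and Cd (13.9%) and for no member in Lp and CBA (9.14%). Both Enho calls were lost without Cd replicate 3 (0.0618 and 0.0646) or Cd replicate 4 (0.0613 and 0.063), the 2 high Cd values. The second call was also lost without CBA replicate 4 (0.0592), without the 2 doubtful arrays (0.0541) and in the fit to the 8 arrays of that pair (0.283). Lp wild type mice exceeded all B6 mice (0.95 ± 0.28, adjusted p = 0.0684, where 2.08% were called, and 0.0172 without the 2 arrays). Lp against CBA was called (0.92 ± 0.28, adjusted p = 0.0493, 4.61% called), but not in 16 of 21 alternative fits. B6 and CBA differed by 0.02, and Lp and Cd by -0.24, with 2.43% of genes called in the latter pair. The F test over the 4 wild type groups called 2 of 10 members, Enho (adjusted p = 0.00257) and Igfbp1, beside 10.7% of all genes, and the Enho call was lost only in the fit to the 16 wild type arrays alone (0.051).

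**Figure D3:**
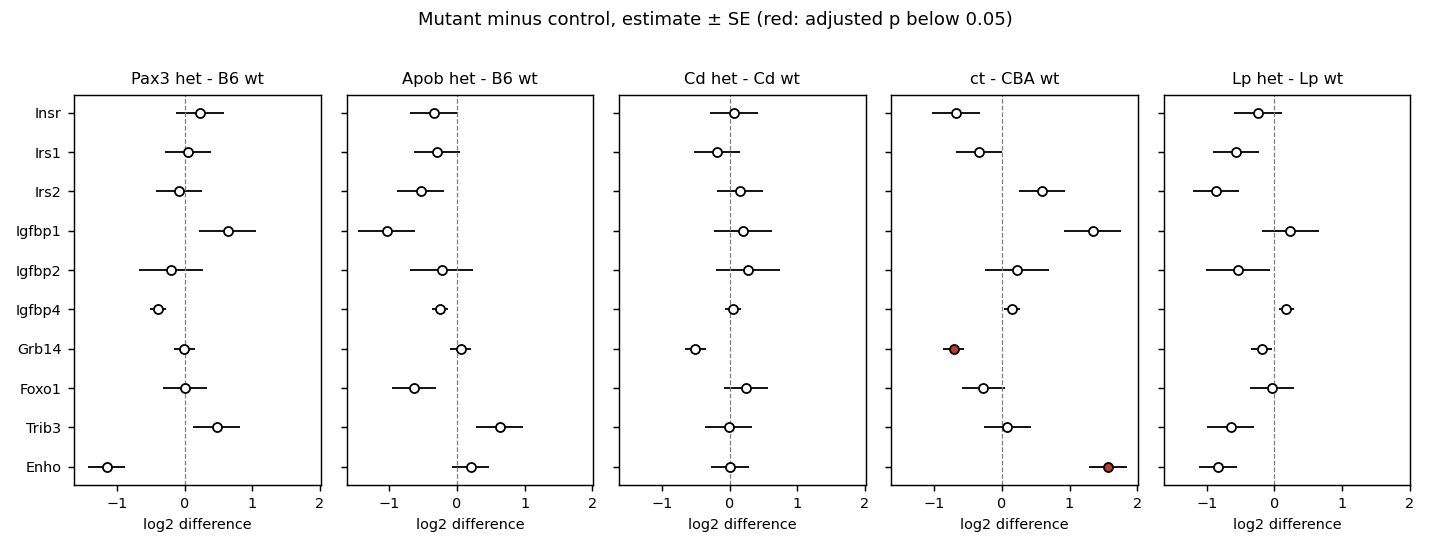
Mutant minus control difference (log2 scale, ± standard error) of the 10 members in each of the 5 lines, 4 arrays per group, filled red where the adjusted p was below 0.05. Enho is at -1.16 in Pax3, -0.84 in Lp and 1.57 in ct, and the 2 filled points are Enho and Grb14 in ct.

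The rest of the pathway was read from 7 lists with 121 genes, of which 111 had a probe set and 108 were tested. Calls were made in ct only: 6 genes, where 6.65% of all genes were called. Ptprf, a receptor phosphatase that acts on the insulin receptor, fell by 1.69 ± 0.27 on the log2 scale (limma adjusted p = 0.000131), from 4390 ± 947 to 1422 ± 656, and was the only 1 of 28 tested proximal signalling genes called. Of 23 downstream kinases and FoxO factors, 1 fell: Tsc1, a brake on mTORC1 (-0.67, adjusted p = 0.0496). Of 14 fasting genes repressed by insulin, 1 rose: Txnip, an inhibitor of glucose uptake (1.44, adjusted p = 0.0375). The remaining 11 tested genes of the IGF axis had 0 calls in each of the 5 lines.

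Of 11 tested insulin-induced genes, 2 fell in ct: Srebf1, the transcription factor of fatty acid synthesis (-1.81 ± 0.35, adjusted p = 0.00133), and Acly, the lipogenic enzyme ATP citrate lyase (-1.79 ± 0.39, adjusted p = 0.00499). In all, 9 of 11 were lower there, with a median of -0.93 beside 0.01 over all genes, and -0.80 without the 2 arrays. Of 8 liver X receptor (LXR) targets and regulators, Srebf1 fell and Nr1h3, which encodes LXRα, rose (0.84, adjusted p = 0.0346). Without the 2 arrays Ptprf, Srebf1 and Acly were still called, and Tsc1, Txnip and Nr1h3 were not (adjusted p = 0.306, 0.0728 and 0.324). Of the 8 Kupffer cell markers, 5 rose in ct with all arrays, with sums of 10790 to 76874 in ct and 4358 to 13441 in CBA, and 0 were called without the 2; their part in these calls and in those of Enho and Grb14 was not tested.

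Without those arrays 6 list genes were called in Apob heterozygotes, where 2.46% of all genes were. These genes are named after their values were seen. Ptpn1 (-0.79), Akt1 (-0.55), Gsk3b (-1.36) and Pck1 (-0.68) fell and Akt1s1 (0.86) and Cited2 (0.54) rose in that fit, and with all 36 arrays their adjusted p-values were 0.0592 to 0.507. Of the 108 tested list genes, Ptprf and Gsk3b were those whose 5 effects differed by the F test (adjusted p = 0.0204 and 0.0492). That test called 2.46% of all genes.

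Among mice of the same group, some members varied together, and how often pairs of other genes did so was not tested. Deviations from the group means were correlated over the 34 arrays without the 2 doubtful ones, by within-group permutation (100000 resamples, two-sided), and 4 of 45 pairs passed after adjustment. Insr correlated with Irs1 (Pearson r = 0.78, Spearman rho = 0.71, permutation adjusted p = 0.0099) and with Foxo1 (r = 0.67, rho = 0.67, adjusted p = 0.0110). Igfbp2 correlated with Irs2 (r = 0.50, rho = 0.53, adjusted p = 0.0180) and with Igfbp1 (r = 0.51, rho = 0.56, adjusted p = 0.0198), the 3 genes whose promoters are shown above. Leaving out the 2 arrays farthest from the median of the first gene gave r = 0.69, 0.62, 0.43 and 0.54 in the same order.

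With all 36 arrays the pair of Igfbp1 and Igfbp2 turned to r = -0.43. On ct replicate 3 the Igfbp1 signal was the highest and the Igfbp2 signal the lowest of the 36 arrays. The pair of Irs2 and Igfbp2 did not pass with all arrays (permutation adjusted p = 0.585). Correlations of a member with a 3' to 5' ratio or with the median of the array were taken over 34 arrays. CBA replicate 4 and ct replicate 3, with GAPDH ratios of 52.5 and 1.72, were left out. A dependence of the members on such high ratios was therefore not tested. None of the 40 correlations passed after adjustment. The strongest was that of Igfbp4 with the actin ratio (r = 0.53, rho = 0.55, permutation adjusted p = 0.297).

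**Figure D4:**
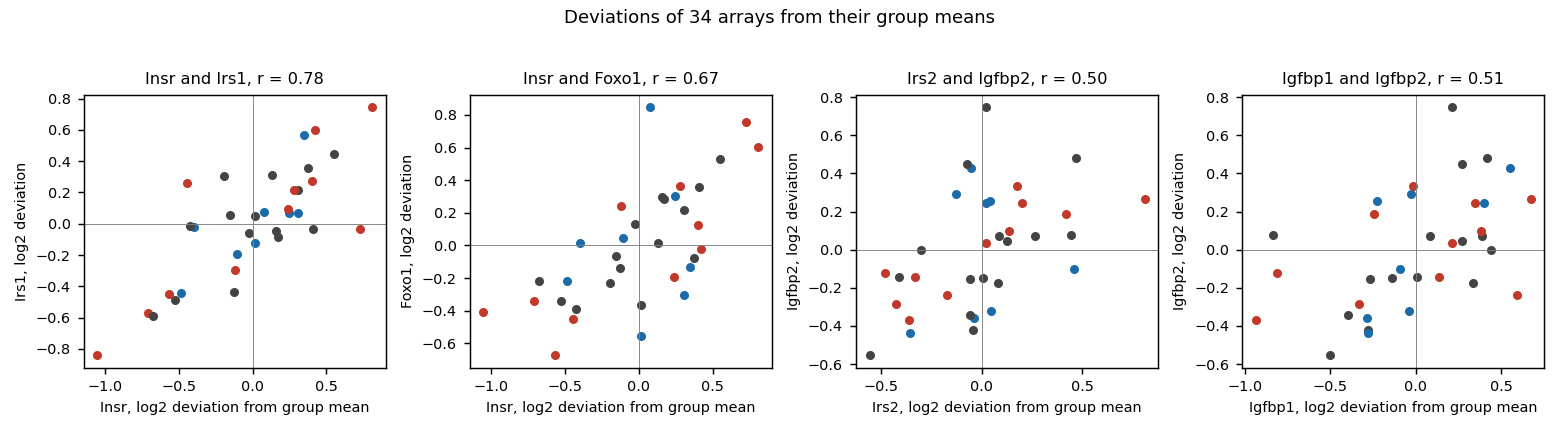
Deviations from the group mean (log2) of the 4 pairs of members that passed, 1 point per array on 34 arrays, controls in grey, responsive lines in blue, resistant lines in red. Mice with more Insr than their group had more Irs1 (r = 0.78) and more Foxo1 (r = 0.67).

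The genes most like each member in this measure, over the same 34 arrays and 13178 candidate genes, are given as a description. For Insr they were F5 (r = 0.95), Cdh2 (0.94) and Ptprd (0.94), and for Irs1 2900026A02Rik, Stk40 and Phlpp1 (0.87 each). Foxo1 went with Edrf1 (0.86), Pi4ka (0.85) and Pgm2l1 (0.84). Irs2 was closest to Ppargc1b (0.75), Slc25a28 (0.73) and Depdc5 (0.71). The nearest gene to Igfbp1 was G6pc, the glucose-6-phosphatase of glucose production (0.60), followed by Cavin1 (0.59) and Fbln5 (0.57). Igfbp2 paired with Polr3c (0.74), Cdca4 (0.64) and Rph3al (0.62), and Igfbp4 with the hepatocyte transcripts Adh1 (0.87), Hpx (0.86) and Ttr (0.86). Grb14 was nearest to Tjp3 (0.71), Tars (0.71) and Mcu (0.69), Trib3 to Oaf, Cdc16 (0.70 each) and Cenpa (0.69), and Enho to Paxx (0.63), Slco1a1 (0.63) and Hnrnpab (0.62).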

How the data were processed

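The authors' deposited values were linear signal intensities of 45101 probe sets, computed with MAS5 per the submitters' processing notes; the version is not given in the sources used here. Per array the trimmed mean (2% left out at each end) was 500.0. Symbols came from the platform annotation, updated through RefSeq GRCm38.p6. The scale was log2(signal + 23.07), the offset being the 20th percentile. Probe sets with a mean log2 above 6.41 (40th percentile, a signal of 61.7) were kept, and the one with the highest mean stood for its gene. All 36 arrays entered one model of 9 group means in limma 3.58.1 (R 4.3.3) with a variance trend. Simulated data had independent noise, with 100 genes changed 2-fold and others 4-fold in the Pax3 comparison. There it called 50% of 2-fold and 95% of 4-fold changes. The adjusted p depends on how many genes change, so these shares need not hold for the real Pax3 comparison, where no gene was called. Tests were two-sided. Figures used matplotlib 3.10.9. Arrays have no read depth, and 4 per group limit the precision. The labels call replicates biological.

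The members and lists were chosen with earlier results of these data known. Named beside the members were list genes called in a mutant comparison, the 3 genes most like each member, Ins1 and Ins2. Of the 9 marker lists, 0 of the tested stellate, hepatocyte, endothelial, cholangiocyte, blood cell and muscle markers were called in Pax3, Cd, Apob or Lp, nor any of the Kupffer or pancreatic ones. In ct, 5 Kupffer, 1 stellate and 1 pancreatic marker rose and 1 stellate marker fell, and adipocyte markers were below the filter. The association with array medians was added after the data were seen. Alternatives were other normalizations, offsets and filters, array weights, other probe sets and arrays left out.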

Additional observations from a re-analysis of the deposited data

Results flagged for a closer look

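Among the 90 sets of 4 arrays (10 members in 9 groups), 4 held an array far from the other 3, and chance alone gives about 1 in 20. Igfbp1 on Apob replicate 2 read a signal of 3177, with the nearest Apob array at 7067. Igfbp2 on ct replicate 3 read 1600 (1599.8), with the nearest at 10759; this array also had a GAPDH ratio of 1.72. Igfbp4 on CBA replicate 4, the array with a GAPDH ratio of 52.5, read 44437, with the nearest at 33781. Grb14 on B6 replicate 1 read 3356, with the nearest at 2878.

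The differences between mutant and control varied among the 5 lines for Enho (moderated F test, limma adjusted p = 5.63e-05), from -1.16 in Pax3 to 1.57 in ct on the log2 scale. The same test passed for Igfbp1 (limma adjusted p = 0.0464), from -1.04 in Apob to 1.34 in ct, but not in 33 of 48 alternative fits. Its ct value was 0.69 without ct replicate 3.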

How the results depend on the processing

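The number of members called moved with these choices. In Pax3, 1 member was called with array weights and 0 otherwise. In ct the count of 2 became 1 without CBA replicate 4 and ct replicate 3 and 0 in a fit to the 8 arrays, and was 3 after centring on array medians, with the higher offset, with the stricter filter and with the replicate block, and 2 to 3 when single arrays were left out. The responsive minus resistant contrast gave 0 to 1 over single arrays left out. The wild type F test (2 members) gave 1 after centring on array medians, with no filter, with no variance trend and with the wild type arrays alone, and 1 to 4 over single arrays. The test of differing effects (2 members) gave 1 with no filter, with no variance trend and without probe sets of shared targets, 4 with array weights, and 1 to 3 over single arrays. The causes were not tested. With quantile normalization 7 pairs of members passed in place of 4, and the correlations of Igfbp4 with Insr (-0.41), Irs1 (-0.37) and Foxo1 (-0.07) became 0.68, 0.67 and 0.66; the cause was not tested. With all 36 arrays the pair of Igfbp1 and Igfbp2 was -0.43. Over all genes the number called ran over the settings from 0 to 18 in Pax3, 0 to 1 in Cd, 24 to 726 in Apob, 38 to 1438 in ct and 0 to 151 in Lp.

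Replicate numbers were not used as pairs in the main fit. Same-numbered arrays deviated with correlations of -0.141 to 0.203, and 4 of 20 were over 0.1. In ct and CBA the correlations were 0.203, 0.201, -0.021 and 0.107 for replicates 1 to 4. The other value over 0.1 was that of replicate 3 in Lp (0.182). With the replicate number as a block, Igfbp1 passed in ct (adjusted p = 0.028) and between Cd and B6 wild type mice (0.0458), and Enho did not between Lp and CBA (0.0553). The block changed no other call of a member, and 798 genes were called in ct in place of 877.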
